A study of Homo sapiens with 12 samples.

Results

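The genes described here are 9 whose level stood high in K562 cells carrying short hairpin RNA (shRNA) against CXXC5 relative to cells given an empty plasmid: MMP1, SAT1, HEY1, PAEP, SERPINB9, CFB, GMFG, GSDME and PIR. They were chosen by that measured difference, knockdown minus empty vector, so it is given below as a description, with no test. They are 9 of 11963 genes measured and are represented by 14 probe sets, groups of short oligonucleotides read as 1 value, each annotated here to 1 gene. A further probe set paired with both SAT1 and ZSWIM8 was set aside.

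The 12 arrays were Affymetrix 3' expression arrays of K562, an established human leukaemia line that the labels call an AML cell line and that is generally known as a line from chronic myeloid leukaemia in blast crisis. They formed 4 groups of 3. The first group carried the empty EGFP plasmid pEGFP-C2 and the second the same plasmid encoding EGFP-CXXC5, called overexpression here, both delivered by nucleofection, a transient transfection. The third carried a scrambled shRNA and the fourth CXXC5 shRNA, called knockdown here, both delivered by stable lentiviral infection with pLKO vectors. All 4 groups received recombinant Wnt3a at 100 ng/ml in medium without serum, and RNA was taken after 8 h. CXXC5 shRNA came as 2 clones, and which knockdown sample carried which is not stated. Nor is it stated that replicates were separate cultures: p-values then reflect only how far these samples scatter, and that scatter may be technical. CXXC5 itself had 0 probe sets in the annotation, and the labels were not checked against its level.

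CXXC5 is a CXXC-type zinc finger protein that binds unmethylated CpG-containing DNA and the Dishevelled protein, through which it is known as a negative regulator of canonical Wnt signalling. Wnt3a is a ligand that starts that signalling at Frizzled receptors. The 9 genes belong to no single pathway: MMP1 is a secreted collagenase, SAT1 a polyamine-degrading enzyme, HEY1 a Notch-induced repressor, PAEP a secreted lipocalin, PIR a nuclear iron-binding protein, SERPINB9 a granzyme B inhibitor, GSDME a pore-forming protein, GMFG an actin regulator and CFB a complement protease.

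The knockdown and empty vector groups differ both in the CXXC5 shRNA and in the way nucleic acid was delivered. Their difference was therefore split into 2 steps. The first, scrambled shRNA minus empty vector, holds the delivery, the vector and the scrambled shRNA itself. The second, knockdown minus scrambled shRNA, holds the change from scrambled to CXXC5 shRNA within the lentiviral arrays. Delivery by virus or nucleofection, stable or transient expression, the EGFP plasmid or pLKO vector, and the scrambled shRNA change together in the first step. They cannot be told apart. Both steps use the same scrambled arrays, with opposite sign. A shift of those arrays alone therefore gives opposite differences in the 2 steps, and such a pair is not 2 separate results. Differences were tested with limma across all 11963 genes, a gene was called at a Benjamini-Hochberg adjusted p under 0.05, and values are log2 levels, on which a difference of 1 is a factor of 2. The first step shares its empty vector arrays, and the second its knockdown arrays, with the choice of the genes, so their p-values are not independent of that choice; the comparison of overexpression with empty vector shares the empty vector arrays. Of the comparisons tested, overexpression minus scrambled shRNA alone uses none of the arrays on which the genes were picked.

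RefSeq's table of promoter windows (GRCh38.p14, 250 bases before to 50 bases from the transcript start) held 7 of the 9 genes, of 35116 windows in all. PIR and PAEP are shown because they are the pair whose level was high in the knockdown arrays alone, and SERPINB9 and GSDME because their levels across the 12 arrays were each other's nearest among all genes. The sequences run 5' to 3' on the strand of the gene: PIR from chrX:15493284-15493583 on the minus strand, PAEP from chr9:135561506-135561805 on the plus strand, SERPINB9 from chr6:2903260-2903559 on the minus strand and GSDME from chr7:24757415-24757714 on the minus strand. Capitals mark matches, on either strand, to 5 searched motifs: AP-1 (TGANTCA), the antioxidant response element (TGACNNNGC), RBPJ (TGGGAA), the TATA box (TATAAA) and the NF-kappaB motif.
PIR: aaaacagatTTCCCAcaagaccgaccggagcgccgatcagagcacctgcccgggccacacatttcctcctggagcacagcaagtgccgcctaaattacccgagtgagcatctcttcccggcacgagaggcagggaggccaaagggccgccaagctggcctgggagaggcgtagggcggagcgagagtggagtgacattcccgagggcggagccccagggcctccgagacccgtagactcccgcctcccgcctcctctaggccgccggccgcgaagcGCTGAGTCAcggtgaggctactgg
PAEP: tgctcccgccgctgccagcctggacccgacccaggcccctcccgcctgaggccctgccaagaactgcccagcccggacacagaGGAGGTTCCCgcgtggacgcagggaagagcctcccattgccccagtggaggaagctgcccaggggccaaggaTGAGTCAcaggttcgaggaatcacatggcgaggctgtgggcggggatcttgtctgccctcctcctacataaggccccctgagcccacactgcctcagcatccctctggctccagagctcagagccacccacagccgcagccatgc
SERPINB9: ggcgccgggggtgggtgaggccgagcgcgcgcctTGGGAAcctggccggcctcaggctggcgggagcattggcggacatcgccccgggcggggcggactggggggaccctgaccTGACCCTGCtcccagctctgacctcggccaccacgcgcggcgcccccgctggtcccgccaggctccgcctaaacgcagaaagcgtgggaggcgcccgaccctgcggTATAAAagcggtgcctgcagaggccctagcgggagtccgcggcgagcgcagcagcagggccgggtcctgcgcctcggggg
GSDME: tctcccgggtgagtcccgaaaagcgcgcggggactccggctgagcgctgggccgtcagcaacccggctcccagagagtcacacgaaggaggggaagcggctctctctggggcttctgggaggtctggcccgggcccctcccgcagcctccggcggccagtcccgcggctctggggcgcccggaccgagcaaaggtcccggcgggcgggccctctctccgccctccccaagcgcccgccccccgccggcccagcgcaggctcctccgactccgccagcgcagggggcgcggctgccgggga

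The PIR and PAEP windows both held the AP-1 letters TGAGTCA. In PAEP the match begins 95 bases before the start, and in PIR 29 bases after it, inside a match to the antioxidant response element read on the other strand. AP-1 letters were in 2 of the 7 windows and in 7.71% of all windows in the table. SERPINB9 held one match each to RBPJ, the antioxidant response element and TATAAA, the last beginning 30 bases before the start. GSDME held no match, which says only that these letters are not in its window. Among all windows, the antioxidant response element letters occurred in 13.35%, RBPJ in 24.03%, TATAAA in 11.53% and the NF-kappaB motif in 11.27%. The windows also differed in CpG content: SERPINB9 and GSDME each held 35 CpG dinucleotides, SAT1 32 and PIR 25, whereas PAEP held 12 and CFB and GMFG 7 each, against a median of 14 over all windows. These matches and counts are descriptions of sequence, and no binding was measured.

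Judged by knockdown minus empty vector, the genes ranked from 1st to 8th, and 22nd for PIR, among all 11963 genes, with differences from 1.24 for MMP1 to 0.74 for PIR. Over all genes 3.02% were called higher in this comparison and the median difference was 0.013. The rule named genes, not a threshold: 22 genes lay at or above PIR, of which 9 are described here, and the nearest others were GDF15 at 0.81, just below GSDME at 0.82, and CXCL8 at 0.72, just below PIR. The 2 steps divided the genes. MMP1, SAT1 and HEY1 had the larger share of the difference in the first step, 64.3%, 75.7% and 87.2%. PAEP and PIR had none of it there (-11.2% and -42.9%), and in SERPINB9, CFB, GMFG and GSDME the first step exceeded the whole, from 118.4% in CFB to 171.8% in GSDME. These 3 sets were formed after the values were seen and are used to order the account.

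**Figure D1:**
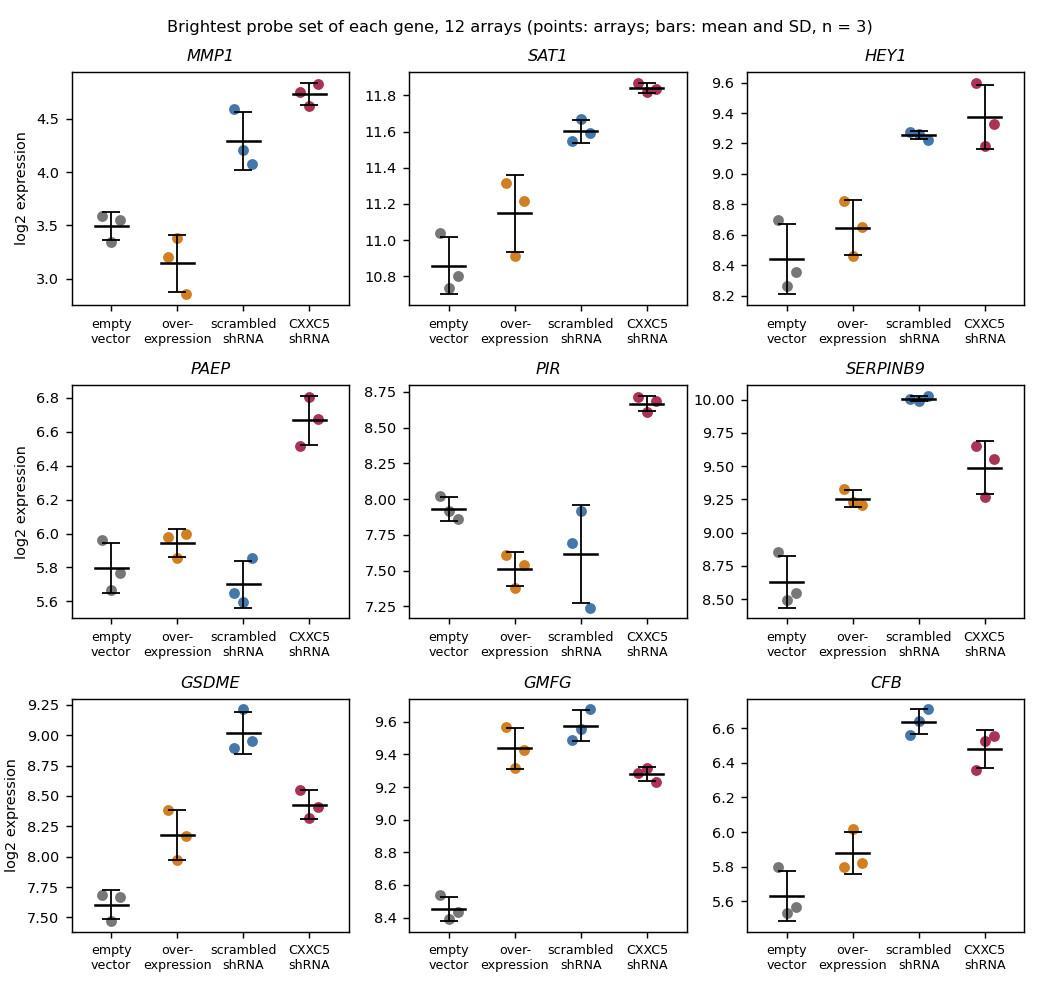
Log2 level of each of the 9 genes on each of the 12 arrays, by group (empty vector, CXXC5 overexpression, scrambled shRNA, CXXC5 shRNA); points are arrays and bars the mean and SD (n = 3), and each panel has its own axis range. In PAEP and PIR the 3 knockdown arrays stand above all others, whereas in SERPINB9 and GSDME the 3 scrambled shRNA arrays do.

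PIR, or pirin, is an iron-binding nuclear protein of the cupin family known as a cofactor of NF-kappaB and as a target of the antioxidant regulator NRF2. Its level was 8.02, 7.92 and 7.86 on the empty vector arrays, 7.61, 7.38 and 7.54 on the overexpression arrays, 7.70, 7.91 and 7.24 on the scrambled arrays and 8.71, 8.61 and 8.69 on the knockdown arrays. The knockdown arrays lay above all 9 others, and the scrambled arrays overlapped those of both plasmid groups. PIR rose by 1.05 ± 0.13 (log2, SE, n = 3 per group) from scrambled shRNA to knockdown, 2.07-fold, at an adjusted p of 0.0004 with limma. The third scrambled array was the lowest of its group; without it the difference was 0.86 and the adjusted p 0.00028. From empty vector to scrambled shRNA the difference was -0.32, with a 95% interval of -0.61 to -0.02 and an adjusted p of 0.092, and without the second scrambled array it was called, at -0.46 and an adjusted p of 0.0179. Without the third scrambled array the same difference was -0.13. Overexpression minus empty vector was -0.42 (95% interval -0.72 to -0.13), which missed the threshold at an adjusted p of 0.0855 and was called under 4 other settings, with adjusted p from 0.00833 to 0.0426. All 3 overexpression arrays lay below all 3 empty vector arrays.

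PAEP encodes glycodelin, a secreted lipocalin best known from the endometrium. Its level was 5.96, 5.66 and 5.77 on the empty vector arrays, 5.98, 5.85 and 6.00 on the overexpression arrays, 5.65, 5.60 and 5.86 on the scrambled arrays and 6.52, 6.81 and 6.68 on the knockdown arrays. The knockdown arrays were again above all others, and the remaining groups overlapped. PAEP rose by 0.97 ± 0.10 from scrambled shRNA to knockdown, 1.96-fold, at an adjusted p of 8.2e-05 with limma. Its difference between scrambled shRNA and empty vector was -0.10, with a 95% interval of -0.31 to 0.12. PAEP lay at the 41.5th percentile of all probe sets by mean level, and setting aside the dimmest 40% of genes leaves it untested.

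PAEP and PIR were the 2 of 9 genes called higher in knockdown than in scrambled shRNA, against 8.79% of all genes, and the median difference over all genes was -0.0091. Neither was called different between overexpression and scrambled shRNA: PAEP differed by 0.24 (95% interval 0.03 to 0.46) and PIR by -0.11 (-0.40 to 0.19), the latter turning to 0.041 without the second scrambled array and to -0.30 without the third. The profiles of the 2 genes across the arrays, each centred on its own mean, lay 0.303 apart (root mean square difference). Closer to PAEP lay SEC24D, a component of the COPII coat of secretory vesicles, at 0.156, and IL21R, a cytokine receptor subunit, at 0.173. SEC24D averaged 7.74, 7.59, 7.44 and 8.27 in empty vector, overexpression, scrambled shRNA and knockdown. The genes nearest to PIR were DYNC2LI1, a light intermediate chain of the dynein of cilia, at 0.225, and PODXL, a sialomucin of the cell surface, at 0.231. PODXL averaged 8.25, 7.76, 7.70 and 8.49 in the same order, so that its empty vector mean stood close to its knockdown mean, unlike that of PIR.

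MMP1, the interstitial collagenase, had the largest difference of all genes between knockdown and empty vector and the lowest level of the 9, at the 12.7th percentile of probe sets. It measured 3.59, 3.35 and 3.55 on the empty vector arrays, 3.21, 3.38 and 2.85 on the overexpression arrays, 4.60, 4.20 and 4.08 on the scrambled arrays and 4.76, 4.62 and 4.83 on the knockdown arrays. Both shRNA groups lay above both plasmid groups without overlap, and knockdown lay above scrambled shRNA on every array. MMP1 was 1.74-fold higher in scrambled shRNA than in empty vector, a difference of 0.80 ± 0.15 with an adjusted p of 0.0019 (limma). The second step, 0.44 with a 95% interval of 0.12 to 0.76, was not called at an adjusted p of 0.067. It was called without the first scrambled array, at 0.59 and an adjusted p of 0.0174. MMP1 was lower in overexpression than in scrambled shRNA, by -1.15 ± 0.15 or 2.21-fold, at an adjusted p of 0.00055, the largest of the 9 differences in that comparison. Between overexpression and empty vector the difference was -0.35, with an interval of -0.67 to -0.03 and an adjusted p of 0.199. No detection calls were used here, so whether MMP1 stood above background is not known.

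SAT1, spermidine/spermine N1-acetyltransferase, performs the rate-limiting step of polyamine breakdown and was the brightest of the 9, at the 94.9th percentile. Its level was 11.04, 10.74 and 10.80 on the empty vector arrays, 11.32, 10.91 and 11.21 on the overexpression arrays, 11.55, 11.67 and 11.59 on the scrambled arrays and 11.87, 11.82 and 11.84 on the knockdown arrays. The knockdown arrays lay above the scrambled arrays, and these above both plasmid groups, which overlapped. SAT1 was 1.68-fold higher in scrambled shRNA than in empty vector (0.74 ± 0.10, adjusted p 0.00028, limma), and the further 0.24 in knockdown (95% interval 0.02 to 0.46) was not called. It was lower in overexpression than in scrambled shRNA by -0.45 ± 0.10, an adjusted p of 0.0113. Its other 2 probe sets gave 0.72 and 0.66 for the first step, 0.20 and 0.21 for the second, and -0.49 and -0.36 for overexpression minus scrambled shRNA. SAT1 also differed by 0.29 between overexpression and empty vector, with an adjusted p of 0.122, and it was called there without the second overexpression array, at 0.41 and an adjusted p of 0.0312.

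HEY1 is a basic helix-loop-helix repressor that Notch signalling induces. It measured 8.70, 8.26 and 8.36 on the empty vector arrays, 8.82, 8.46 and 8.65 on the overexpression arrays, 9.28, 9.26 and 9.22 on the scrambled arrays and 9.60, 9.19 and 9.33 on the knockdown arrays. The 2 shRNA groups overlapped each other and lay above both plasmid groups. HEY1 was 1.76-fold higher in scrambled shRNA than in empty vector (0.81 ± 0.13, adjusted p 0.00073, limma). Knockdown added 0.12, with a 95% interval of -0.16 to 0.40. The second HEY1 probe set gave 0.61 for the first step and 0.31 for the second, the latter at an adjusted p over all probe sets of 0.107. HEY1 was lower in overexpression than in scrambled shRNA by -0.61 ± 0.13, 1.52-fold, at an adjusted p of 0.009. HEY1 and SAT1 were each other's nearest genes across the 12 arrays, at 0.105, and the next for both was ARG2, the mitochondrial arginase that feeds ornithine to polyamine synthesis, at 0.13 from SAT1. The genes nearest to MMP1 were ATF3, a stress-induced transcription factor that pairs with AP-1 subunits, at 0.303, and TFPI2, a serine protease inhibitor, at 0.315.

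SERPINB9 is the intracellular inhibitor of granzyme B. Its level was 8.85, 8.49 and 8.54 on the empty vector arrays, 9.33, 9.23 and 9.21 on the overexpression arrays, 10.003, 9.990 and 10.028 on the scrambled arrays and 9.65, 9.27 and 9.55 on the knockdown arrays. The scrambled arrays were the highest and the empty vector arrays the lowest, and neither overlapped another group. SERPINB9 was 2.60-fold higher in scrambled shRNA than in empty vector (1.38 ± 0.11, adjusted p 4.7e-06, limma) and fell by 0.52 from scrambled shRNA to knockdown, an adjusted p of 0.0069. It was also higher in overexpression than in empty vector, by 0.63 ± 0.11 at an adjusted p of 0.0043, and lower in overexpression than in scrambled shRNA, by -0.75 at 0.00095. A second SERPINB9 probe set, at the 31.8th percentile by level, gave 0.15 for the first step, 0.07 for the second and -0.07 for overexpression minus empty vector. For overexpression minus scrambled shRNA it gave -0.22, which was not called. With the probe sets averaged, the fall in knockdown became -0.22 with an adjusted p of 0.131 and the rise in overexpression 0.28 with 0.0932.

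GSDME, gasdermin E, forms membrane pores after cleavage by caspase-3. It measured 7.68, 7.47 and 7.67 on the empty vector arrays, 8.39, 7.97 and 8.17 on the overexpression arrays, 8.90, 9.22 and 8.95 on the scrambled arrays and 8.55, 8.32 and 8.41 on the knockdown arrays. The order of the groups was that of SERPINB9, with the overexpression and knockdown arrays overlapping. GSDME had the largest first step of the 9 genes, 1.41 ± 0.12 or 2.67-fold, at an adjusted p of 7.3e-06 (limma), and fell by 0.59 from scrambled shRNA to knockdown, 1.51-fold, at 0.0051. It was higher in overexpression than in empty vector by 0.57 at an adjusted p of 0.0114, which became 0.51 and 0.0582 without the second empty vector array. In overexpression it was lower than in scrambled shRNA by -0.84, at 0.00082. SERPINB9 and GSDME lay 0.129 apart across the arrays, and the next for both was PLCD1, a phospholipase C, at 0.152 from GSDME.

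GMFG, glia maturation factor gamma, belongs to the ADF/cofilin family, acts on Arp2/3 actin branches and is known mainly from blood cells. Its level was 8.54, 8.39 and 8.44 on the empty vector arrays, 9.57, 9.31 and 9.43 on the overexpression arrays, 9.49, 9.56 and 9.68 on the scrambled arrays and 9.28, 9.32 and 9.23 on the knockdown arrays. The empty vector arrays stood apart below all others, and the overexpression arrays overlapped both shRNA groups. GMFG was the member with the largest rise in overexpression over empty vector, 0.98 ± 0.08 or 1.98-fold, at an adjusted p of 1.6e-05 (limma), and it was 2.17-fold higher in scrambled shRNA than in empty vector, at 1.7e-06. Overexpression and scrambled shRNA differed by -0.14, with a 95% interval of -0.30 to 0.03. GMFG fell by 0.30 from scrambled shRNA to knockdown, an adjusted p of 0.022, a call lost without the second or the third scrambled array, or without the first or the third knockdown array, with adjusted p from 0.0529 to 0.0791. Nearest to GMFG was CD52, a small leukocyte surface glycoprotein, at 0.156, which averaged 10.46, 11.28, 11.19 and 11.16 in empty vector, overexpression, scrambled shRNA and knockdown.

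CFB, complement factor B, supplies the protease of the alternative pathway's C3 convertase. It measured 5.80, 5.53 and 5.57 on the empty vector arrays, 5.80, 6.02 and 5.82 on the overexpression arrays, 6.56, 6.64 and 6.71 on the scrambled arrays and 6.36, 6.53 and 6.56 on the knockdown arrays. The plasmid groups lay below both shRNA groups; scrambled shRNA and knockdown almost touched, the lowest scrambled array standing above the highest knockdown array. CFB was 2.01-fold higher in scrambled shRNA than in empty vector (1.00 ± 0.09, adjusted p 1.6e-05, limma) and lower in overexpression than in scrambled shRNA by -0.76, at 0.00034. Knockdown and scrambled shRNA differed by -0.16, with a 95% interval of -0.35 to 0.04 and an adjusted p of 0.285. A second CFB probe set, at the 21st percentile by level, gave 0.06 for the first step. For overexpression minus scrambled shRNA it gave 0.11, of the opposite sign and not called. The genes nearest to CFB were MISP, an actin-bundling spindle protein, at 0.116, and GGTLC2, at 0.121, which belongs to a family of near-identical copies that the probes may not tell apart.

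**Figure D2:**
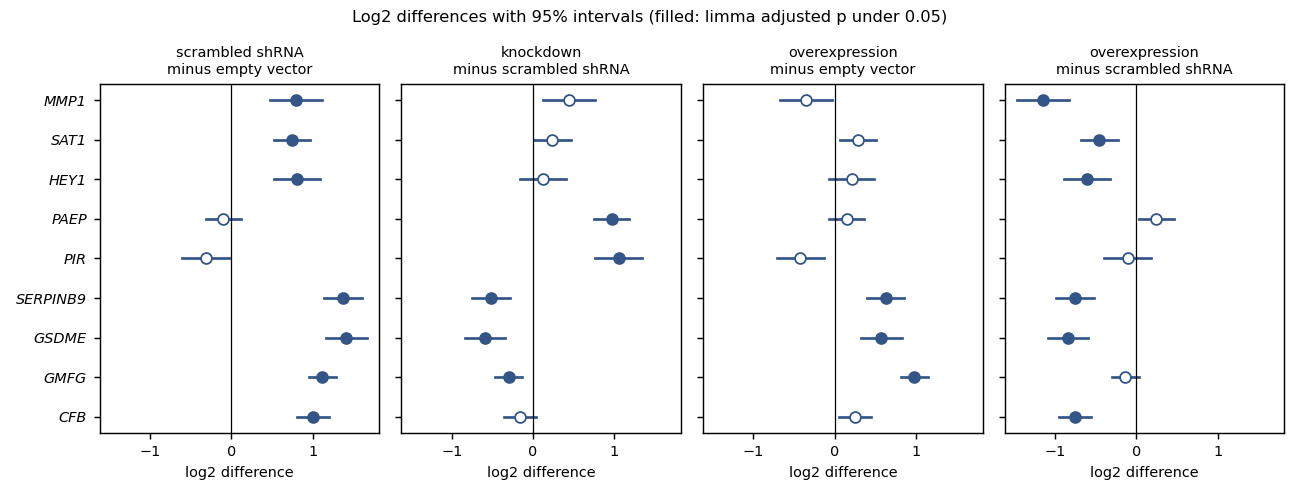
Log2 difference with its 95% interval for each of the 9 genes in the tested comparisons, from 3 arrays per group; filled points were called by limma at an adjusted p under 0.05. PAEP and PIR stand to the right in knockdown minus scrambled shRNA and near 0 or to the left in scrambled shRNA minus empty vector, where the other 7 stand to the right.

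In all, 7 of the 9 genes were called higher in scrambled shRNA than in empty vector, against 16.2% of all genes (all but PAEP and PIR), and 0 lower by limma, against 15.3%, with PIR the 1 lower at an unadjusted p under 0.05. From scrambled shRNA to knockdown 2 were called higher, as given above, and 3 lower (SERPINB9, GMFG and GSDME), against 5.22% of all genes. In overexpression minus empty vector 3 were called higher (SERPINB9, GMFG and GSDME), against 3.61%, and 0 lower by limma, against 3.37%, with 2 lower at an unadjusted p under 0.05 (MMP1 and PIR). Each comparison so far shares arrays with the choice of the genes, so its counts are not those of unselected genes. The difference overexpression minus scrambled shRNA uses no array of the choice. There, 6 were called lower (MMP1, SAT1, HEY1, SERPINB9, CFB and GSDME), against 9.85% of all genes. By limma 0 were called higher, against 8.16%, with PAEP the 1 higher at an unadjusted p under 0.05. Fitted on only the 6 arrays compared, 6 were again called lower, where 11.6% of all genes were called either way. That comparison differs in delivery, vector and the scrambled shRNA as well as in the CXXC5 plasmid, and these cannot be told apart in it. The median differences over all genes were 0.017, 0.0013 and -0.011 in the first step, overexpression minus empty vector and overexpression minus scrambled shRNA.

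**Figure D3:**
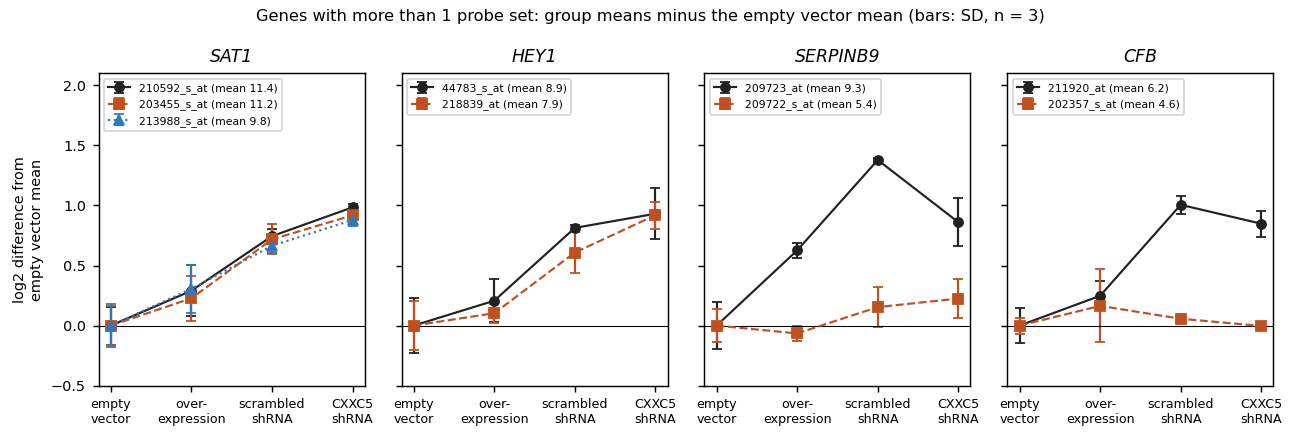
Group means minus the empty vector mean (log2, bars SD, n = 3) by group for each probe set of SAT1, HEY1, SERPINB9 and CFB, the genes with more than 1; lines join the groups of a probe set and imply no order. The probe sets of SAT1 and HEY1 lie together, whereas the dimmer ones of SERPINB9 and CFB stay within 0.23 of the empty vector level.

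The scrambled arrays were not alike in RNA quality. The gap between the 3' and 5' control probe sets of GAPDH, which widens as RNA breaks down, was 0.87 on the third scrambled array and 0.23 to 0.34 on the other 11 arrays. Without that array the calls of the 9 genes held in the 3 comparisons that use scrambled shRNA, except that of GMFG between knockdown and scrambled shRNA (-0.24, adjusted p 0.0701). The arrays carried the line's erythroid identity: 7 of 7 measured defining markers, GATA1, TAL1, KLF1, ALAS2, TFRC, HBE1 and HBZ, lay above the median level of all probe sets. Of the markers of other cells, 1 of 10 fibroblast, 1 of 9 lymphoid, 2 of 9 myeloid and 5 of 10 epithelial genes did. The mean fibroblast level ranged from 5.14 to 5.39 over the arrays and the mean epithelial level from 7.73 to 7.86. The mean erythroid level was 10.89 to 10.95 on the scrambled arrays and 10.67 to 10.78 on all others. Of the 7 erythroid markers, 3 were called higher and 2 lower in the first step, against 16.2% and 15.3% of all genes. From scrambled shRNA to knockdown 1 was called higher and 4 lower, against 8.79% and 5.22%.

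Other genes of the pathways were read from lists of related genes that leave out the 9, and their counts stand beside the percentages and medians of all genes given above. Their values are those of the brightest probe set, and other probe sets of some named genes gave smaller or opposite differences. Opposite differences in the 2 steps share the scrambled arrays, as stated above. Among 29 measured targets of NRF2, the regulator that PIR answers to, 9 were called higher and 2 lower in the first step, with a median of 0.142. They were led by SQSTM1, an autophagy receptor, at 0.95 and by SLC7A11, the cystine transporter, at 0.85, and both were lower in overexpression than in scrambled shRNA, by -0.88 and -0.72. In knockdown minus scrambled shRNA 2 were called higher, NQO1, a quinone reductase, by 0.58 and GCLM, a subunit of the glutathione-making ligase, by 0.37, and 2 lower, with SQSTM1 falling by 0.71. The median there was 0.031. In overexpression minus empty vector 2 were called lower, GCLM at -0.73 and ME1, the malic enzyme, at -0.35, and 7 were called lower in overexpression minus scrambled shRNA, where the median was -0.14.

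The polyamine list of SAT1 held 16 measured genes, of which 3 were higher and 3 lower from empty vector to scrambled shRNA, with a median of 0.063. ARG2 was higher by 0.66 and AMD1, which makes the aminopropyl donor of polyamine synthesis, was lower by -0.56. AMD1 was then higher in knockdown than in scrambled shRNA by 0.32, 1 of 2 called higher against 1 lower at a list median of 0.005. In the Notch list of HEY1, with 23 measured genes, 4 were higher and 3 lower in the first step (median 0.017), and 3 higher and 2 lower in the second (median -0.084). HES1, a Notch-induced repressor like HEY1, was higher in knockdown by 0.44 at an adjusted p of 0.013 and lower in overexpression than in empty vector by -0.66 at 0.0022, while HEYL, another family member, was higher in scrambled shRNA by 0.48. NOTCH1, the receptor, was lower in knockdown than in scrambled shRNA by -0.34.

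Of 32 complement genes 9 were called higher and 1 lower in the first step, with a median of 0.127. C3, the central component, was higher by 0.51 and CD55, which limits the convertases, by 0.43. Both were lower in knockdown than in scrambled shRNA (-0.25 and -0.24), the 2 complement genes called there, where the list median was -0.064. A second CD55 probe set gave 0.18 for the first step and -0.04 for the second. C3AR1, a receptor for a C3 fragment, was higher in overexpression than in empty vector by 0.71. Of 14 clade B serpins, granzymes and perforin, 3 were higher in the first step, with a median of 0.11, and 1 lower in the second, with a median of -0.043. That 1 was PRF1 at -0.34. PRF1, the pore protein through which granzymes act, was higher in overexpression than in empty vector by 0.51 and SERPINB8 higher in scrambled shRNA by 0.37.

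Of 14 gasdermin and pyroptosis genes, 4 were higher and 2 lower in the first step (median 0.157) and 1 higher and 3 lower in the second (median -0.072). AIM2, a sensor of DNA in the cytosol, was higher in scrambled shRNA than in empty vector by 0.60, lower in knockdown than in scrambled shRNA by -0.54 and higher in overexpression than in empty vector by 1.03. PYCARD, the inflammasome adaptor, had a first step of -0.40 and was higher in knockdown than in scrambled shRNA by 0.44. In empty vector, scrambled shRNA and knockdown, AIM2 averaged 6.37, 6.97 and 6.44, and PYCARD 9.52, 9.11 and 9.55. Of 26 genes of the ADF/cofilin family and Arp2/3 complex, 2 were higher and 8 lower in the first step, with a median of -0.128, and 4 were higher and 3 lower in the second, with a median of 0.07. SSH1, a phosphatase that activates cofilin, had a first step of -1.26 and was higher in knockdown than in scrambled shRNA by 1.31. It averaged 8.00, 6.74 and 8.05 in empty vector, scrambled shRNA and knockdown, so the scrambled arrays stood apart. GMFB, the paralogue of GMFG, was lower in overexpression than in empty vector by -0.32.

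Of 25 metalloproteinases and inhibitors, 2 were higher and 1 lower in the first step, MMP14 by 0.42 and TIMP1 by 0.23, with MMP15 lower by -0.53 and a list median of 0.075. Other MMP14 probe sets gave 0.243, 0.235 and -0.07 there. MMP15 was the 1 called in the second step, where it was higher by 0.39 and the list median was -0.047. Of 10 lipocalins, 2 were higher and 1 lower in the first step, APOD by 0.84 and PTGDS by 0.58, with a median of 0.029. In knockdown minus scrambled shRNA 0 lipocalins were called by limma, 3 were lower at an unadjusted p under 0.05, and the median was -0.034; APOM and APOD came nearest, at -0.19 and -0.38. Over all 9 lists, of 10 to 32 measured genes each, 13 genes were called higher and 14 lower in knockdown minus scrambled shRNA. The all-gene shares there were 8.79% and 5.22%. In the first step 38 and 20 list genes were called, against 16.2% and 15.3% of all genes. In overexpression minus empty vector 5 and 9 were called, against 3.61% and 3.37%. In overexpression minus scrambled shRNA 11 and 26 were called, against 8.16% and 9.85%. The lists were not tested as sets.

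**Figure D4:**
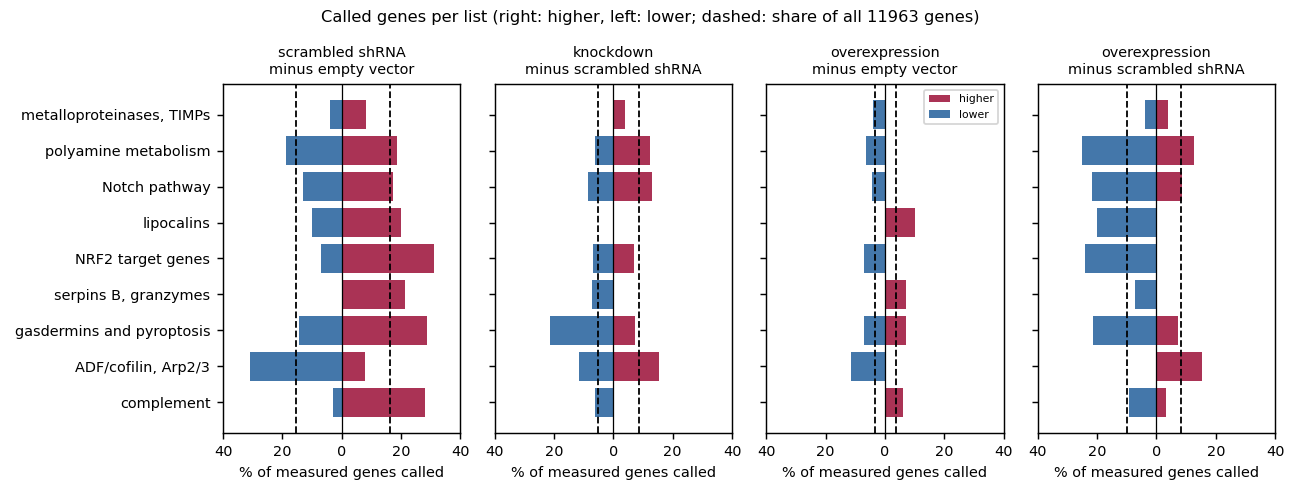
Percent of the measured genes of each of the 9 lists called higher or lower in each comparison, beside the same percent over all genes. In scrambled shRNA minus empty vector, the complement, NRF2, metalloproteinase, Notch, lipocalin, serpin and gasdermin lists have more genes called higher than lower. The polyamine list is even there, and the ADF/cofilin list has more genes called lower.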

How the data were processed

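Values were deposited by the authors as log2 levels per probe set and array; the log2 scale was inferred from their range, 2.07 to 14.4. Per the submitters' processing notes, the software was Affymetrix Expression Console; how it summarised probes, and its version, is not given in the sources used here. Array medians lay between 6.65 and 6.71. No scanner files were used, so background and scan batches were not examined; precision is limited by how many arrays there are.

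Of 22277 probe sets, 62 controls were left out; 19064 carried 1 symbol, 1043 several and 2108 none. The brightest probe set stood for each of 11963 genes; 19052 probe sets matched RefSeq by gene identifier and 2 by accession. limma 3.58.1 (R 4.3.3) was fitted with 1 coefficient per group over 12 arrays, tests two-sided, with Benjamini-Hochberg adjustment over all genes and a threshold of 0.05. The fit was tested on simulated data. Named genes were the 9, up to 3 called genes per list and comparison with the largest difference, and the 2 nearest profiles of each. The 9 genes and the lists were chosen with earlier results of these data known.

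Alternatives were quantile normalization, median centring, each probe set on its own, the mean of all probe sets, omission of the lowest 40% of genes, only the 6 arrays compared, array weights, a trended robust prior, a threshold of 0.01, a replicate block and each array left out in turn.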

Additional observations from a re-analysis of the deposited data

How the results depend on the processing

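Of 564 values of the 9 genes under alternatives, 542 kept their direction and side of the threshold, 11 became called, 10 lost the call and 1 reversed, PIR in overexpression minus scrambled shRNA (0.041, adjusted p 0.854 by limma, without the second scrambled array, in a range from -0.296 to 0.0414 over the arrays left out). Whether the replicate numbers pair the samples is not settled. Deviations of same-numbered arrays correlated at -0.115 to 0.395 between groups. They were positive throughout for replicates 1 and 3 and from -0.115 to 0.007 for replicate 2. The fit with a replicate block called 2 members higher and 3 lower in knockdown minus scrambled shRNA, and 7 and 0 in scrambled shRNA minus empty vector. It called 3 and 0 in overexpression minus empty vector and 0 and 6 in overexpression minus scrambled shRNA. All these counts were as without the block, which called 15.8%, 34.3%, 7.33% and 20.2% of all genes in these comparisons. Omitting the lowest 40% left 1 member called higher in knockdown minus scrambled shRNA, where 28.8% of the genes kept were called either way. PIR was the 1 called lower in overexpression minus empty vector under that omission, with only the 6 arrays, the trended prior and array weights. Of all genes tested, 15.3%, 4.87%, 9.47% and 13% were called there in these settings. Under array weights 1 was called higher in overexpression minus scrambled shRNA, where 26% of all genes were called. Over the arrays left out, the called members numbered 2 to 3 higher and 2 to 3 lower in knockdown minus scrambled shRNA. All-gene shares called either way there were 9.48% to 12.8%. In scrambled shRNA minus empty vector 7 members were higher and 0 to 1 lower (1 without the second scrambled array), with shares of 21.7% to 30%. Members numbered 2 to 4 and 0 in overexpression minus empty vector (shares 3.18% to 5.07%). In overexpression minus scrambled shRNA they numbered 0 and 6 (shares 10.1% to 16.3%). Over the same arrays left out, with the same all-gene shares, list genes called numbered 8 to 13 higher and 6 to 12 lower in knockdown. They numbered 23 to 33 and 14 to 20 in scrambled shRNA minus empty vector. In overexpression they numbered 3 to 4 and 4 to 6 against empty vector, and 6 to 11 and 15 to 20 against scrambled shRNA. Their counts in knockdown were 9 lower with the mean of probe sets and 6 lower with only 6 arrays, where 13.7% and 8.51% of all genes were called either way. At 0.01 their counts were 8 higher and 2 lower in knockdown (6.55% of all genes), and 14 and 12 in scrambled shRNA minus empty vector (17.4%). There, they were 3 and 4 in overexpression minus empty vector (2.73%) and 6 and 10 in overexpression minus scrambled shRNA (6.36%). Array weights gave 8 and 14 in overexpression minus empty vector and 19 higher in overexpression minus scrambled shRNA, where 13% and 26% of all genes were called either way. Why the counts moved was not tested. Fewer arrays enter the fits with an array left out or with only 6 arrays, and fewer genes the fit without the lowest 40%. The threshold of 0.01 changes only the cutoff of the same fit. With the mean of probe sets, knockdown minus empty vector was 0.54 for SERPINB9 and 0.42 for CFB. Signal over background was not available here, which limits the dim genes MMP1, PAEP and CFB.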
